A study of Homo sapiens with 12 samples.

Results

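The histone genes are the protein-coding genes whose symbols begin with H1-, H2AC, H2BC, H3C, H4C, H2AZ, H2AX, H2AJ, MACROH2A or H3-3. There were 82 of them among the 20056 protein-coding genes of the gene table: 70 replication-dependent genes (symbols H1-1 to H1-6, H2AC, H2BC, H3C and H4C) and 12 variant genes (among them H1-7, H1-8, H1-10, H2AZ1, H2AZ2, H2AX, H2AJ, MACROH2A1, MACROH2A2, H3-3A and H3-3B). A gene was counted as listed in a library when the midpoint of a peak lay within its annotated span on its strand. The measurement was acetylated RNA immunoprecipitation sequencing (acRIP-seq), in which fragmented total RNA is captured by an antibody to N4-acetylcytidine (ac4C), a modified base written by the acetyltransferase NAT10. All libraries came from SW620, a human colorectal cancer cell line grown in L15 medium with fetal bovine serum. The 3 control libraries carried a control short hairpin (shControl, labelled wild type) and the 3 knockdown libraries a hairpin against NAT10 (shNAT10, labelled NAT10 knockdown). The labels number the replicates but do not say whether they were separate cultures, so each p-value measures only the spread between these libraries.

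Replication-dependent histone genes supply the core histones H2A, H2B, H3 and H4 and the linker histone H1 while DNA is copied. They lie in clusters, have no introns, and their mRNAs usually end in a stem-loop bound by SLBP in place of a poly(A) tail. Variant genes lie outside the clusters, often carry introns and poly(A) tails, and are expressed through the whole cell cycle. A library kit for whole RNA is among those named in the labels, but whether poly(A) tails were selected is not given in the sources used here.

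Each library has 1 list of mRNA peaks with a score, which begins at 50 and piles up at 3100. The score was read only as a rank within its library: a high percentile means that most peaks of that library scored lower. Without read counts the depth behind each peak is unknown, and an unlisted gene may have lacked the modification, the transcript or the reads. The 6 libraries listed 17877 to 28752 peaks, and the highest number belonged to knockdown replicate 1. NAT10 itself had 1, 0 and 2 peaks in the controls against 2, 0 and 1 in the knockdown libraries, numbers that say nothing of how much NAT10 mRNA there was. Of 10 colorectal epithelial marker genes, 5 were listed in all 6 libraries (EPCAM, CDH1, KRT8, CDX2 and VIL1), while none of 11 markers of leukocytes, fibroblasts, endothelium or hepatocytes was.

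For many short histone genes, the place where the listed peak began could be read in the sequence. The windows given here are from RefSeq (GRCh38.p14), run 5′ to 3′ along the gene's strand, and hold 20 bases before the peak's edge and 10 from it, with the first 3 bases of the peak in capitals. The first 6 genes are shown because their peaks opened on ATG, the start codon of translation, and the last 3 because their peaks did not.

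H3C3, chr6:26045391-26045420, plus strand: tgtgtgtgctctcattgcaaATGgctcgta
H3C1, chr6:26020470-26020499, plus strand: cgctgtgctgtttttccgtcATGgctcgca
H4C12, chr6:27831518-27831547, minus strand: tgagactcctcttgctcgtcATGtctggcc
H4C4, chr6:26189067-26189096, minus strand: ttaacagctgtggtttcaagATGtctggcc
H2AC17, chr6:27893140-27893169, minus strand: aggccacaggtcgttttaccATGtctggac
H2AC14, chr6:27814731-27814760, minus strand: aaggtaatagaccttttgccATGtctgggc
H1-4, chr6:26156334-26156363, plus strand: cccggccagtgcctctgcttCCGgctcgaa
H4C11, chr6:27824088-27824117, plus strand: cctcacaaagcgttgggtgaGACtcctctt
H1-10, chr3:129316268-129316297, minus strand: gccctcccgccagagcgcagCGCgcacgcc

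An edge close enough to the annotated start of the gene to be read from the promoter table was found in 26 replication-dependent genes, and in 15 of these (57.7%) a peak began exactly on ATG. Among 1564 other protein-coding genes that could be read in the same way, 25 (1.60%) had such an edge, and among 36 other genes with spans of at most 2000 bases, 2 did (5.56%). These shares are descriptions without a test, since genes are not replicates and replication-dependent genes have short leaders that place their start codon inside the window. The only variant gene that could be read, H1-10, had no such edge.

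Starts were more regular than ends. Of 41 replication-dependent genes listed in at least 2 libraries, 26 had the same start and the same end, base for base, in every library that listed them. Another 10, such as H2BC7, H3C10 and H4C5, kept the start while the end moved, 0 kept the end while the start moved, and in 5 both moved. Among the 26, most H3, H4, H2A and H2B genes shared a peak length with others of their family, while each H1 gene had its own. In H3 genes, which encode a core histone whose tail carries many regulatory marks, the peak was 411 bases long in H3C1, H3C2, H3C3, H3C7, H3C11 and H3C12. In H4 genes it was 312 bases in H4C1, H4C4, H4C12 and H4C13.

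H2A peaks of this kind measured 387 bases in H2AC12 and H2AC14 and 393 bases in H2AC4, H2AC16 and H2AC17, and those of H2B measured 381 bases in H2BC3 and H2BC10. The linker histone genes had longer ones, of 642 bases in H1-2, 666 bases in H1-3 and 681 bases in H1-5. These are the 20 of the 26 genes with fixed edges whose peak length is a multiple of 3, as the length of a coding sequence must be. The remaining 6 had lengths not divisible by 3, of 754 (H1-4), 503 (H2AC13), 605 (H2AC6), 460 (H2BC12L), 373 (H4C11) and 577 bases (H4C16).

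Across all peaks, 61.0% of 228 in replication-dependent genes had a length divisible by 3, compared with 37.8% of 74 in variant genes and 36.0% of 122314 in all protein-coding genes. Fixed edges as such were common in the lists: 62.9% of the 5973 protein-coding genes listed in all 6 libraries had at least 1 peak identical in all of them, compared with 19 of 28 replication-dependent genes (67.9%) and 5 of 7 variant genes (71.4%). A gene with several peaks has more chances to hold an identical one, so these shares are not like for like. How the caller set its edges is not given in the sources used here, and the part of its annotation in these edges was not tested.

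**Figure D1:**
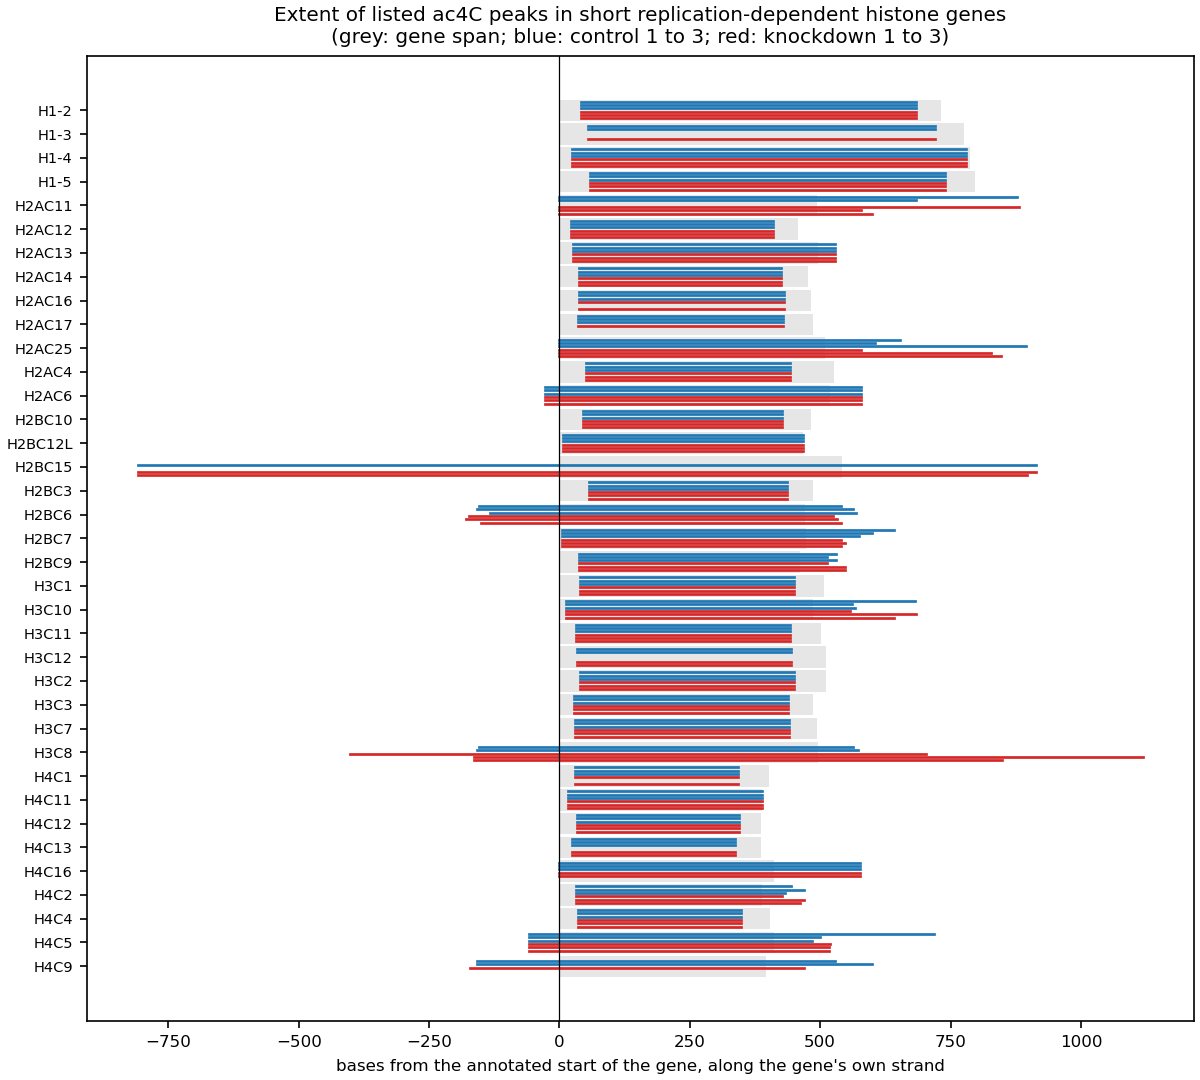
Extent of each listed peak in replication-dependent genes with spans of at most 1000 bases and peaks in at least 2 libraries, in bases from the annotated start along the gene's strand; grey bars are gene spans, blue lines the 3 control and red lines the 3 knockdown libraries. In many genes the lines share both edges, and in genes such as H2BC15, H3C8 and H4C9 the peak runs beyond the span.

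**Figure D2:**
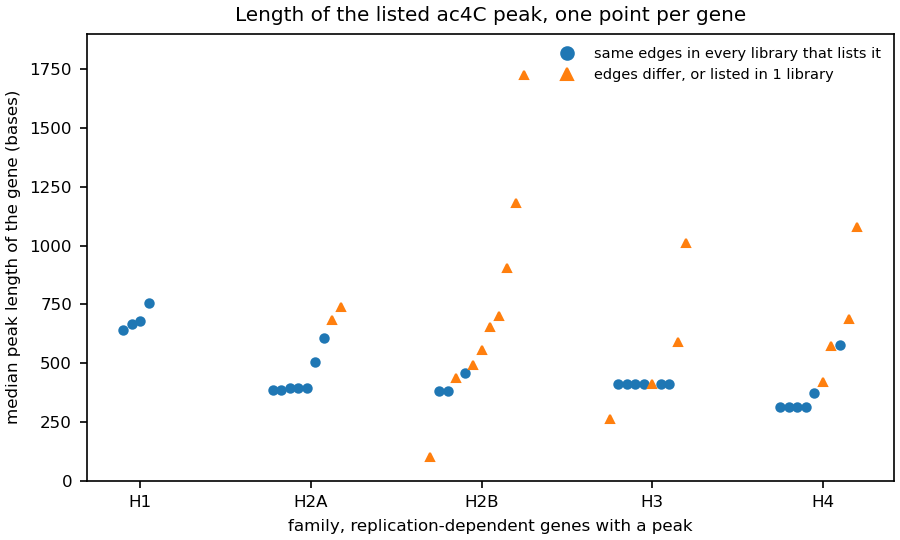
Median peak length in bases for each replication-dependent gene with a peak, by family; blue points are genes with the same edges in every library that listed them and orange triangles are genes whose edges differed or that only 1 library listed. The points line up at 411 bases for H3 and 312 bases for H4, at 387 and 393 bases for H2A and at 381 bases for H2B.

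Most histone genes were listed, and most of those in every library. Of the 82 genes, 53 were listed by 1 library or more (64.6%), 35 of them by all 6 (42.7%). For all protein-coding genes these shares were 61.3% and 29.8%. The replication-dependent class had 45 of 70 genes listed, with 28 in all 6 libraries, 17 in part of them and 25 in none. Of the 12 variant genes 8 were listed, 7 of them in all 6 libraries.

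By family, H3 genes had the highest share listed in at least 1 library, with 10 of 13 listed and 6 in all libraries. H2A genes had the lowest, with 9 of 17 listed and 6 in all libraries. H2B had 12 of 19 listed and 8 in all libraries, H4 had 10 of 15 and 5, and H1 had 4 of 6 and 3. By listing in all 6 libraries the order differed, with H1 highest (50%) and H4 lowest (33.3%). The order among the families is a description of gene numbers and was not tested. By cluster, which was not tested either, in the major part of the chromosome 6 cluster 23 of 34 genes were listed and 16 in all libraries, in its distal part 12 of 16 and 7, and in the cluster at 1q21 4 of 11 and 2. The count at 1q21 depended on the midpoint rule, and was 6 of 11 and 4 when any overlap of at least 1 base counted.

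**Figure D3:**
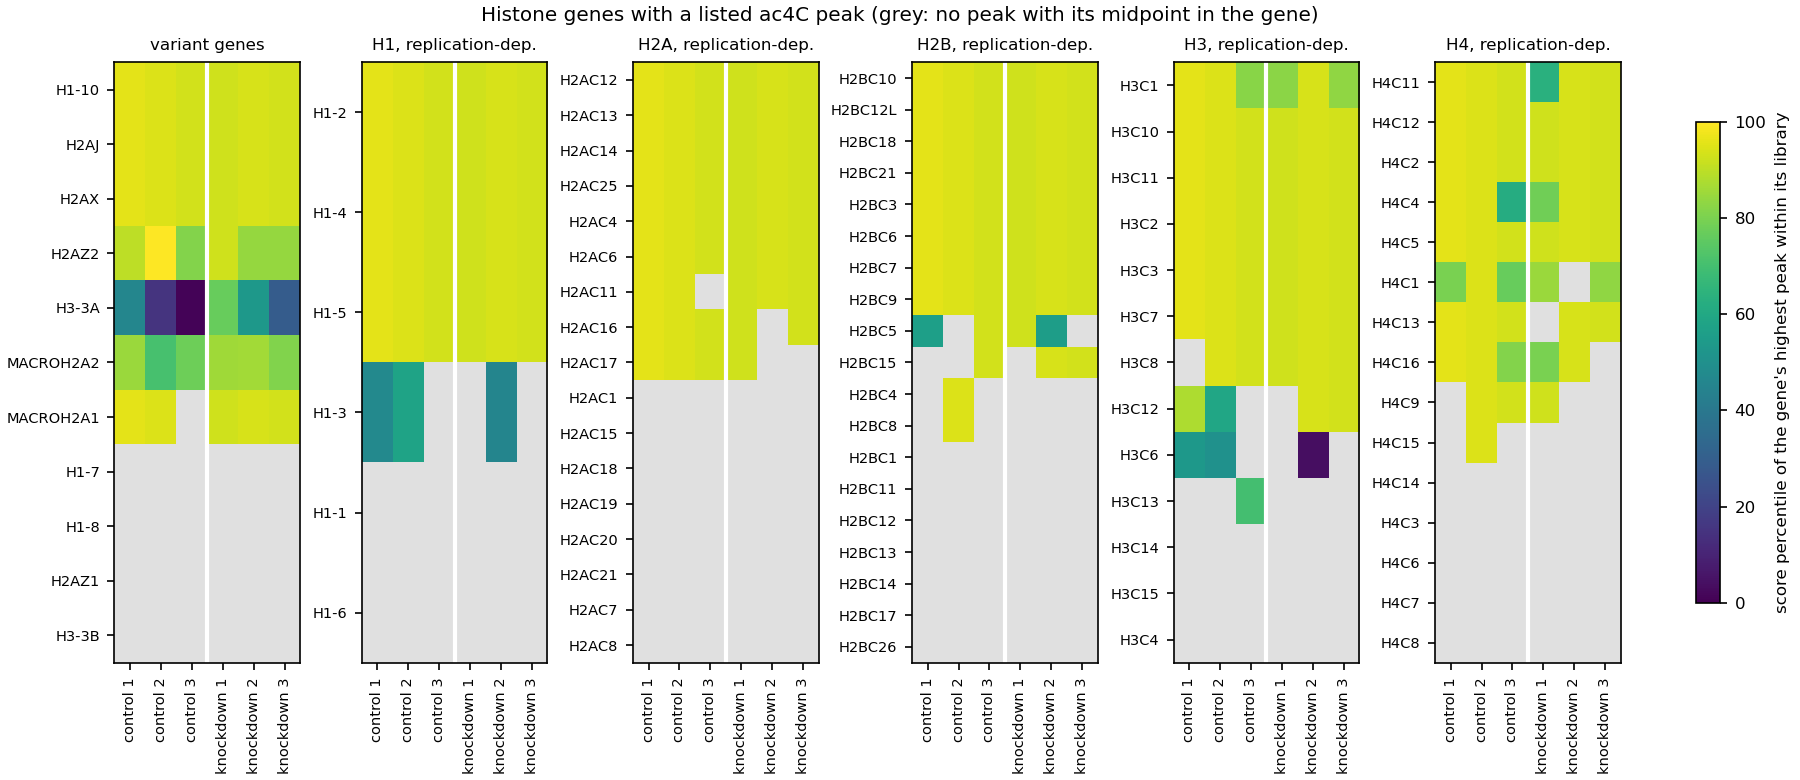
Each row is a histone gene (1 variant gene is not drawn) and each column a library, coloured by the within-library score percentile (0 to 100) of the gene's highest peak, with grey for no peak and a white line between the control and knockdown libraries. Most listed replication-dependent genes sit at the top score in every library, while H3-3A, H1-3 and H3C6 hold lower percentiles.

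Replication-dependent genes are short, with a median span of 494 bases, and short genes were rarely listed. Per library, replication-dependent genes were listed in 54.3, 60 and 54.3% of cases in the controls and in 51.4, 52.9 and 50% in the knockdown libraries. The 1206 other genes with spans of at most 2000 bases were listed in 8.71, 11.4 and 10.1% of cases in the controls and in 13.3, 8.29 and 9.87% in the knockdown libraries. The histone share was higher in every library, by 43.5 ± 3.78 percentage points (SD, n = 6; two-sided exact sign-flip permutation test over the 6 within-library differences, p = 0.03125, the smallest it can give). The other short genes were chosen by span alone, and 971 of the 1206 were listed in no library. Whether their transcripts were present was not tested. With a limit of 5000 bases for the other genes the difference was 34.0 percentage points.

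Set against the variant genes, the replication-dependent share was lower. Variant genes were listed in 66.7, 66.7 and 58.3% of cases in the controls and in 66.7% in each knockdown library. The difference, replication-dependent minus variant, was -11.5 ± 5.01 percentage points (SD, n = 6; negative in 6 of 6 libraries; two-sided exact sign-flip permutation test, p = 0.03125). The variant share rests on 12 genes, so 1 gene decides much of it: with H2AX moved to the replication-dependent class the difference was -7.66 (p = 0.0625, exact permutation test). When any overlap of at least 1 base counted as a listing it was -5.52 (p = 0.0625, exact permutation test), since long peaks with midpoints beyond a short gene were then included.

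**Figure D4:**
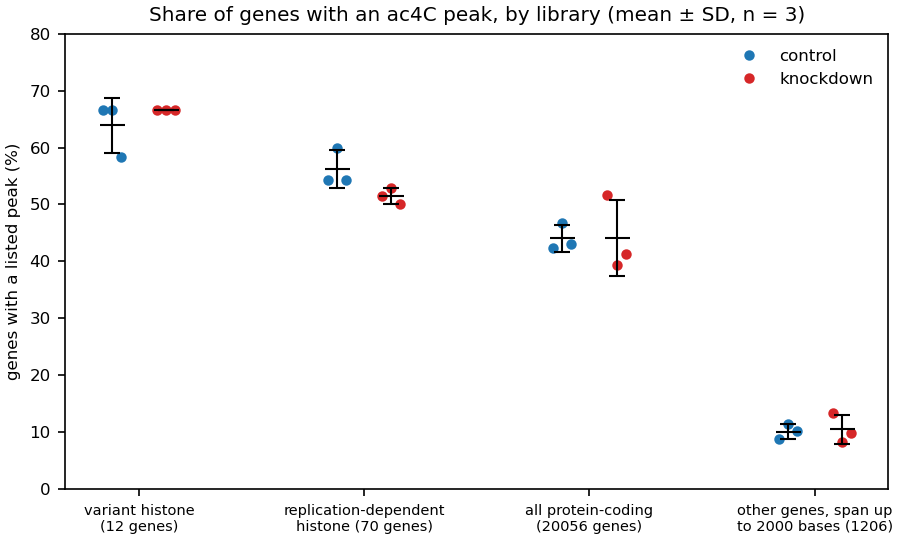
Percent of genes with a listed peak in each library (points, blue for control and red for knockdown) with mean and SD over 3 libraries, for variant histone genes, replication-dependent histone genes, all protein-coding genes and other genes with spans of at most 2000 bases. Both histone classes lie above the short genes in every library.

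The peaks of the 2 classes also differed in the share of the gene span they covered. Those of replication-dependent genes covered a median of 83.9, 84.6 and 85.1% of the gene span in the controls and 85.1, 85.5 and 84.7% in the knockdown libraries. In variant genes the median was 10.1, 9.37 and 17.3% in the controls and 11.02, 11.8 and 11.02% in the knockdown libraries. The difference was 73.0 ± 2.64 percentage points (SD, n = 6; two-sided exact sign-flip permutation test, p = 0.03125). Spans are genomic and include any introns, with a median of 494 bases in replication-dependent and 3472 bases in variant genes. Span length is therefore built into this measure, and the p-value does not separate it from the extent of the peaks. The median midpoint lay at 0.486 to 0.500 of the replication-dependent span, where 0 is the annotated start and 1 the end, and at 0.227 to 0.361 of the variant span (difference 0.21 ± 0.0611, SD, n = 6; the same exact permutation test, p = 0.03125). A peak that covers most of a gene has its midpoint near the middle, so both values describe the same short, filled spans. The variant median lies between unlike genes: peaks covered 99.4% of the span of H1-10 and 100% of that of H2AX in every library, 17.3% of that of H2AJ, and 0.516 to 6.25% of those of H2AZ2, H3-3A, MACROH2A1 and MACROH2A2.

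Replication-dependent peaks sat near the top of each library's ranking. Between 84.6 and 94.3% of them per library had a score of 3100 or more, compared with 36.4 to 54.5% of variant peaks and 7.85 to 14.1% of all peaks. All 42 variant peaks below that score belonged to 3 genes with several peaks, H2AZ2 (17), MACROH2A2 (16) and H3-3A (9), and the other 5 listed variant genes had every peak at it. Medians of the score percentile were 92.7 to 96.0 in replication-dependent genes and 77.8 to 94.8 in variant genes. The difference was 8.45 ± 5.05 percentile points (SD, n = 6), positive in 5 libraries and 0 in control replicate 2, and did not pass the threshold of 0.05 (exact sign-flip permutation test, p = 0.0625). It was 11.7 (p = 0.03125, exact permutation test) with H2AX moved to the replication-dependent class, and the same when peaks in the span of more than 1 gene were left out. Scores of exactly 3100 have no order among them, and only 1 histone peak exceeded that value, an H2AZ2 peak that scored 3171 in control replicate 2 (percentile 99.8).

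Linker histone genes encode H1, which binds the DNA that enters and leaves the nucleosome. H1-2 (chr6:26055740-26056470), H1-4 (chr6:26156329-26157115) and H1-5 (chr6:27866792-27867588) had 1 peak at the top score in each of the 6 libraries. H1-3 was listed in control replicates 1 and 2 and in knockdown replicate 2, with the same 666-base peak at percentiles between 45.5 and 57.9. H1-1 and H1-6, a testis form, were listed in none.

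Among H2A genes, H2AC12 and H2AC13 had 1 top-scored peak in every library, of 387 and 503 bases. H2AC17 (peak chr6:27892757-27893149, 393 bases), whose window is among those printed, had the same peak at 3100 in all 3 controls and in knockdown replicate 1 and none in knockdown replicates 2 and 3. It was the single histone gene whose groups differed by at least 2 libraries. Of the 12293 protein-coding genes listed at all, 4.19% had at least 2 more control libraries and 3.51% at least 2 more knockdown libraries, so 1 of 53 listed histone genes is not above that background. Without knockdown replicate 1, the only knockdown library that listed it, H2AC17 was listed in all controls and in no knockdown library. The share of all genes listed so without that library was not computed.

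H2BC10 and H2BC12L represent H2B, the partner that pairs with H2A in the nucleosome. Both had 1 peak at 3100 in each library, of 381 and 460 bases. H2BC5 shows how a long annotated span mixes places: control replicate 3 and knockdown replicate 1 listed a 496-base peak that began at base 26 of the gene, while control replicate 1 and knockdown replicate 2 listed peaks of 375 and 371 bases that began at base 12855. Its 4 libraries therefore did not list the same stretch.

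For H3, H3C10 and H3C11 had most peaks. H3C11 had the 411-base peak at 3100 in every library. H3C10 began at base 14 of the gene in all 6 libraries but ended at different places, with lengths of 669, 548 and 554 bases in the controls and 545, 670 and 628 bases in the knockdown libraries, so that the groups overlapped. H3C6, with a span of 3296 bases, had 5 peaks in 3 libraries, none above percentile 53.3.

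H4 genes encode the most uniform of the core histones. H4C12 held its 312-base peak at 3100 in every library. H4C11 held a 373-base peak at 3100 in 5 libraries, while in knockdown replicate 1 the same peak scored 699 and stood at percentile 63.5. A change of that kind in 1 library was not tested for cause. H4C4 was also listed in all 6, with 2 of its peaks below the ceiling and the lowest at percentile 61.7.

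Some genes were counted as unlisted only because their peaks were longer than they were. With any overlap of at least 1 base, 47 replication-dependent genes were listed, 35 of them in all 6 libraries and 12 in part. H2AC11, H2BC8, H2BC15, H3C8, H3C14, H3C15 and H4C9 then had a peak at the top score in every library. H3C14 and H3C15, near-identical copies of an H3 gene at 1q21, had peaks of equal length in each library: 1656 bases in 5 libraries and 1627 bases in knockdown replicate 1. Reads of such copies cannot be assigned to one of them with certainty, and the same limit applies to other histone genes with near-identical coding sequences.

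H2A and H2B genes often stand back to back and are read outward from a shared promoter region. The table gave 12 such pairs with start sites 194 to 248 bases apart. In 11 of them a gene had a peak on its own strand, and in 10 of these only 1 partner did, in any library. H2AC11, H2AC12, H2AC13, H2AC14, H2AC17 and H2AC25 were listed while H2BC11, H2BC12, H2BC13, H2BC14, H2BC17 and H2BC26 were not, and H2BC7, H2BC8, H2BC15 and H2BC21 were listed while H2AC7, H2AC8, H2AC15 and H2AC20 were not. For H2BC15 and H2AC15 this rests on the strand given to the peak, which ran over the whole of both genes in all 6 libraries. The strand of H2AC12 was missing, so peaks of either strand were taken for it, and all its peaks were on the plus strand.

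The exception was H2AC6, listed in all 6 libraries, with H2BC4, which had a single 102-base peak in control replicate 2. That peak began 8792 bases from the start of H2BC4, far from the shared promoter region. H2AC1 and H2BC1, a testis pair, were listed in none. The unlisted partners made up 10 of the 23 replication-dependent genes that no peak overlapped on the same strand. A peak on the other strand overlapped 2 of the 10, H2AC15 and H2BC12, in all 6 libraries. The 2 cases differ: the annotated span of H2BC12, of 8566 bases, contains H4C9 on the other strand. The H4C9 peaks lay inside that span in all 6 libraries.

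One-sided listing was less marked among other divergent pairs of protein-coding genes, with 401 of 655 listed pairs (61.2%) having both partners listed. Those genes are mostly far longer. Where both spans were at most 5000 bases, 2 of 11 listed pairs had both partners listed (18.2%), next to 1 of 11 histone pairs (9.09%), so the histone pairs cannot be set apart from other short pairs. Peak strands come from the deposited lists, and how they were assigned is not given in the sources used here.

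Promoters of both classes were searched for 2 short motifs in the 250 bases before the start site, on both strands. TATAAA was found in 42 of 63 replication-dependent promoters in the table (66.7%), in 4 of 10 variant promoters (40%) and in 9.63% of 13820 protein-coding promoters. CCAAT was found in 54 of 63 (85.7%), 8 of 10 (80%) and 35.2%. A match describes letters and does not show a site in use.

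H1-10, H2AJ and H2AX had 1 peak at the top score in every library. H1-10, a linker histone, had a 1507-base peak, and H2AJ, a variant of H2A, a 644-base peak, both identical and at 3100 in all 6. H2AX, whose phosphorylated form marks DNA breaks, had a 1614-base peak in 5 libraries and a 1609-base one in control replicate 2, all at 3100.

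H2AZ2, a form of H2A.Z found near promoters, had short peaks spread along its span. Both the controls and the knockdown libraries listed 4, 3 and 3 of them, so the groups overlapped fully. Peaks of 115, 78 and 114 bases had the same edges in all 6 libraries. A longer one near the middle of the span, of 319 and 331 bases, appeared in control replicate 1 and knockdown replicate 1. The other H2A.Z gene, H2AZ1, was listed in none.

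The macroH2A genes encode H2A forms with a large extra domain and are linked to silent chromatin. MACROH2A1 had 1 peak at 3100 in control replicates 1 and 2 and in all 3 knockdown libraries, with 1 common end (chr5:135399062) and lengths of 561 and 395 bases in the controls and 338, 561 and 561 bases in the knockdown libraries. It had none in control replicate 3. MACROH2A2 had 2, 2 and 3 peaks in the controls and 5, 2 and 2 in the knockdown libraries. Its peaks of 205 and 231 bases were present in every library, and the extra peaks of knockdown replicate 1 came in the library with most peaks.

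H3-3A and H3-3B encode the replacement histone H3.3, which is deposited outside DNA replication. H3-3A had 1 peak in each control and 2 in each knockdown library (exact permutation test over 3 against 3 libraries, p = 0.1, the smallest possible). The groups did not overlap, and it was the only histone gene of which this was true. Among all listed genes 1.59% had more peaks in every knockdown than in every control library and 0.659% the reverse. H3-3A is 1 of 53 listed histone genes, a share near that background. A 134-base peak stood at percentiles 45.8 and 15.2 in control replicates 1 and 2 and at 76.9, 53.2 and 28.9 in the knockdown libraries. Control replicate 3 listed only a 350-base peak at percentile 0.793, which lies just above the lowest score in its list. With the higher-scored 50% of peaks, or the same number in each library, H3-3A was listed in 66.7 percentage points more knockdown than control libraries. The share of all genes with such a difference under these settings was not computed. H3-3B had no listed peak.

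The comparison of control with NAT10-knockdown cells asks whether knockdown of the acetyltransferase removes ac4C peaks from histone mRNAs. No histone gene was listed in every control but no knockdown library or the reverse, compared with 0.334% of listed genes for control and 0.366% for knockdown. All histone genes together held 51, 54 and 49 peaks in the controls and 52, 49 and 47 in the knockdown libraries. The means were 51.3 ± 2.52 and 49.3 ± 2.52 (SD, n = 3 each), a difference within the spread between libraries (two-sided exact permutation test, p = 0.5).

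Replication-dependent genes held 39, 43 and 38 peaks in the controls and 36, 37 and 35 in the knockdown libraries. The groups did not overlap, with means of 40 ± 2.65 and 36 ± 1 (SD, n = 3 each) and a difference of -4 peaks, knockdown minus control (exact permutation test, two-sided, p = 0.1, the floor for 3 against 3). As a percent of each library's peaks the difference was -0.0258 percentage points (p = 0.4, exact permutation test). With spans of at most 1000 bases, a limit chosen after seeing the data, it was -2.33 peaks, and without control replicate 2 it was -2.5 peaks.

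The difference came from genes listed in part of the libraries. H1-3, H2AC16, H2AC17, H2BC4, H2BC8, H3C6, H3C13, H4C1, H4C9, H4C13, H4C15 and H4C16 were listed in more control libraries, 12 genes in all, and H2AC11, H2BC15 and H3C8 in more knockdown libraries. Of all listed protein-coding genes 19.6% were listed in more control libraries and 20.8% in more knockdown libraries. With any overlap, 10 replication-dependent genes were listed in more control and 0 in more knockdown libraries. In 9 of the 10 the groups differed by 1 library. The shares of all genes given above are for the midpoint rule. None was computed for any overlap, so the counts of 10 and 0 have no matching background.

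Variant genes held 12, 11 and 11 peaks in the controls and 16, 12 and 12 in the knockdown libraries, with means of 11.3 ± 0.577 and 13.3 ± 2.31 (SD, n = 3 each; exact permutation test, p = 0.3). Without knockdown replicate 1 the difference was 0.667 instead of 2 peaks.

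Genes that make histone mRNAs were mostly listed too. Of 19 genes of histone mRNA transcription and 3′ processing, 16 were listed (84.2%) and 10 in all 6 libraries (52.6%), next to 61.3% and 29.8% of all protein-coding genes, and their median span of 36272 bases exceeded the 24092.5 bases of all genes. SLBP, the stem-loop binding protein, held 2, 3 and 2 peaks in the controls and 2, 2 and 3 in the knockdown libraries. NPAT, the coactivator that assembles at the histone clusters, had none. ZNF473, a zinc finger protein of the processing complex, held 2, 2 and 1 peaks in the controls and 3, 0 and 0 in the knockdown libraries. CASP8AP2, needed for histone gene expression, had none in the controls and 2, 0 and 1 in the knockdown libraries, and LSM10, a subunit of the U7 particle that directs cleavage, had none and 1, 0 and 1. These 3 were named for a difference of at least 2 libraries, which 4.19% of all listed genes showed towards control and 3.51% towards knockdown, against 1 and 2 of the 16.

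Of 20 genes for histone chaperones and their partners, with a median span of 34887 bases, 17 were listed (85%) and 11 in all 6 libraries (55%). For all protein-coding genes these shares were 61.3% and 29.8%. NAP1L1, a chaperone of H2A and H2B, held 0, 1 and 1 peaks in the controls and none in the knockdown libraries. A difference of at least 2 libraries towards control was shown by 4.19% of all listed genes, against 1 of the 17. Among 15 histone genes outside the symbol rule, CENPA, the H3 form of centromeres, and H3-5 were listed in all 6 libraries and H3-7 in 5, and the other 12 in none.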

How the data were processed

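Peak lists of 6 ac4C immunoprecipitation libraries (3 control, 3 NAT10 knockdown) were used, with groups from the labels. The input libraries were not analysed here. The authors deposited 1 list of mRNA peaks per library with a score per peak, unscaled between libraries. Build GRCh38 is from the submitters' processing notes. Aligner, peak caller settings and annotation are not given in the sources used here, though the peak names follow MACS. No counts were given, so depth is unknown.

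Peaks were assigned by midpoint and strand to gene spans of the RefSeq GRCh38.p14 table. Overall 96.6% of midpoints fell in a gene and 1.83% of peaks in more than 1. Strand came from the RefSeq promoter table. For 7 histone genes it was missing, and peaks on either strand were taken. A gene was called when every control and no knockdown library listed it, or the reverse. Groups were compared by two-sided exact permutation, classes by exact sign-flip permutation over within-library differences.

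The members and lists were chosen with earlier results of these data known. Genes named were the variants (1 is counted but not reported here), genes differing by at least 2 libraries, the 2 genes of each family with most peaks, and from the processing, chaperone and other histone lists the genes that met either criterion, with SLBP and NPAT. Others, among them the marker genes, the genes in the sequence windows, those with fixed edges, the divergent pairs and the near-identical copies, were named after their values were seen. Of the list symbols 1 was not in the gene table.

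Alternatives were the higher-scored 50% of peaks, equal numbers of peaks (17877), overlap of at least 1 base, either strand, peaks in 1 gene only, percent of library peaks, a span limit of 5000 bases, H2AX moved between classes, chromosome 6 only, a difference of at least 2 libraries, a replicate block, and each library left out. A span limit of 1000 bases for replication-dependent genes was added with the values in view, after seeing the data. The code was tested on simulated lists. Python 3.11.15, numpy 2.4.6, pandas 2.3.3 and matplotlib 3.10.9 were used.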

Additional observations from a re-analysis of the deposited data

How the results depend on the processing

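No result changed direction. The difference in the share of genes listed, replication-dependent minus variant, was no longer past the threshold with the higher-scored 50% of peaks (-6.63 percentage points, exact permutation p = 0.156), equal numbers of peaks (-8.69, p = 0.125), any overlap (-5.52, p = 0.0625), peaks in 1 gene only (-4.56, p = 0.125) and H2AX moved (-7.66, p = 0.0625). The score percentile difference passed it (11.7, exact permutation p = 0.03125) with peaks in 1 gene only and with H2AX moved. The number of called histone genes went from 0 to 1 when a difference of at least 2 libraries sufficed (H2AC17) and with the replicate block (H3-3A, more peaks in knockdown in all 3 pairs). The first criterion was met by 4.19% of all listed genes towards control and 3.51% towards knockdown. For the block the share of all genes was not computed. The H3-3A groups did not overlap, so any pairing of its libraries gives the same sign.

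With 1 library left out, the smallest p of the class comparisons is 0.0625, so none can pass. The ranges were 72.6 to 74.1 percentage points for the covered share, 0.20 to 0.23 for relative position, 7.05 to 10.1 for the score percentile, 42.5 to 44.6 for the share against short genes and -13.0 to -10.4 against variants. Peak differences ranged from -3.33 to -0.667 for all histone genes, -5 to -2.5 for replication-dependent genes and 0.667 to 2.67 for variants. For all histone genes the peak difference was -0.667 without control replicate 2 and -0.833 without knockdown replicate 3, instead of -2. Called genes ranged from 0 to 1, and the share of all genes called with 1 library left out was not computed.

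Same-numbered libraries did not deviate together (correlations of -0.179, -0.122 and -0.00401 over 12293 genes), so the numbers were not taken as pairs. With the replicate block the exact permutation p was 0.5 for all histone peaks and 0.25, the smallest possible, for replication-dependent and variant peaks. Unknown depth and the score ceiling limit what a listing or a rank can show.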
